A study of Mus musculus with 4 samples.

Results

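Blood-rich spots of the normal mouse kidney were the spatial transcriptomic spots in which hemoglobin transcripts took the largest share of the captured RNA. In each of the 2 normal sections, the 3% of spots with the highest summed share of Hba-a1, Hba-a2, Hbb-bs and Hbb-bt were taken, among spots under tissue with at least 500 unique molecular identifiers (UMIs, one per captured transcript). This gave 78 of 2606 spots in normal section 1 and 79 of 2647 in normal section 2, or 157 spots of the 10312 tissue spots in the 4 sections of the series. The sections were 10 µm thick and came from left kidneys of male wild-type C57BL/6J mice aged 7 to 8 weeks. The other 2 sections were ischemic, taken 24 h after 30 min of bilateral clamping, and are used here only for comparison. No label ties a section to its mouse, so p-values rest only on the spread between these sections, partly shared across genes. That spread may be technical. A spot is a small region that can hold several cells, and fewer cells of a type cannot be told apart from less RNA per cell.

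Red blood cells of mammals lose their nucleus but keep transcripts from their precursor stage while they are young. Most of those transcripts encode the alpha and beta chains of hemoglobin, and adult mice of this strain carry a pair of nearly identical genes for each chain. Heme, the iron-containing group that binds oxygen, is made along a pathway whose first step in red-cell precursors is catalysed by Alas2. Blood in a kidney section lies in arteries and veins that run from the hilum between the lobes, in arched vessels at the border of cortex and medulla, in the vasa recta of the medulla and in capillaries.

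The copies of each hemoglobin gene are shown because reads can tell them apart only where they differ. The coding sequences of Hba-a1 and Hba-a2 on chromosome 11 differed at 1 of 429 bases, and both encode the same 142 residues. Hbb-bs and Hbb-bt on chromosome 7 differed at 1 of 444 coding bases, with the same 147 residues. The stretches around those bases follow, from the GENCODE transcripts, with the differing base in capitals. Positions count from 1 at the start of the coding sequence, and the changes are C381T and C417T, with the base of the first gene named before the position.
Hba-a1: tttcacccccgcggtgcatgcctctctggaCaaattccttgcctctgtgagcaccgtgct
Hba-a2: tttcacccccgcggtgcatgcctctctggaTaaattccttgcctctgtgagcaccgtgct
Hbb-bs: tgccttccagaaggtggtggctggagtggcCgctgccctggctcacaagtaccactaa
Hbb-bt: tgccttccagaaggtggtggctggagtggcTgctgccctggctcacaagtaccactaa
The first 74 bases after the stop codon were identical between the alpha copies. The beta copies, compared over a longer stretch after the stop codon, were identical at 94 of 133 aligned positions (70.7%). A 3′-directed assay reads mainly that end, so the split between Hba-a1 and Hba-a2 is uncertain and their sum is the safer value.

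The 250 bases before the RefSeq start of 3 genes are shown because their transcripts were found in the same spots. In GENCODE each of these genes begins farther upstream, inside the stretch shown. Capitals mark matches, on either strand, to the GATA-type letters AGATAA or TGATAA, to CCACACCC and to CCAAT. All are from the RefSeq GRCm38.p6 genome and are written along the gene's own strand.
Hbb-bs, chr7:103827929-103828178, minus strand: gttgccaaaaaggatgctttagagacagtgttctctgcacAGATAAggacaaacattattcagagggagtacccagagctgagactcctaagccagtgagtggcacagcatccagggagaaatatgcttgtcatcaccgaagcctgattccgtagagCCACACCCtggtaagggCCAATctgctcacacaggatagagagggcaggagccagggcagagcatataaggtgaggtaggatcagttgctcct
Hbb-bt, chr7:103813924-103814173, minus strand: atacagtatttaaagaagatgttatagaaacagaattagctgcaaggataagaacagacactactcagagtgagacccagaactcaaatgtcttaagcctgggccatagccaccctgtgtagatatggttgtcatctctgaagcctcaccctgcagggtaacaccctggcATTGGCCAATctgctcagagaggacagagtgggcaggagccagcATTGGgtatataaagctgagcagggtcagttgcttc
Alas2, chrX:150547167-150547416, plus strand: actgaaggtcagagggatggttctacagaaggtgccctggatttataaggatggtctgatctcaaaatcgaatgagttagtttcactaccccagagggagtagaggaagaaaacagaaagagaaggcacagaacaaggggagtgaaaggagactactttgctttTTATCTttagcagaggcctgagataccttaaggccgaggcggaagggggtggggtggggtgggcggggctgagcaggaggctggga
Of 32851 promoter windows of the same length, 16.6% held AGATAA or TGATAA, 3.20% held CCACACCC and 33.8% held CCAAT. Hbb-bs held all 3 kinds of match, Hbb-bt held 3 CCAAT matches, of which an adjoining pair lies head to head, and Alas2 held 1 AGATAA match on the opposite strand. These are matches of letters and not measured binding sites.

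Hemoglobin took 0.887% of all UMIs in normal section 1 and 0.903% in normal section 2. In the chosen spots of normal 1 the share ran from 13.6% through a median of 21.2% to 47.1%, and in normal 2 from 7.96% through 14.8% to 61.0%. The spots were chosen by these shares of the 4 hemoglobin genes, which are therefore a description. The last spot taken stood at 13.61% in normal 1 and the first left out at 13.59%, against 7.96% and 7.51% in normal 2, so that the limit fell within a continuous range. Most other spots held very little. The median tissue spot had a share of 0.0422% in normal 1 and 0.0575% in normal 2, and 205 and 432 spots held no hemoglobin UMI. The chosen spots therefore carried 48.4% and 53.9% of all hemoglobin UMIs in their sections.

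Each of the 4 hemoglobin genes was counted in every chosen spot. Hbb-bs, the more abundant beta chain gene, ran from 43 through a median of 1163.5 to 2841 UMIs per spot in normal 1 and from 36 through 655 to 2715 in normal 2. Hba-a1 had a median of 616.5 UMIs in normal 1 and 369 in normal 2, and Hba-a2 had medians of 464 and 275. Hbb-bt was the lowest, with medians of 115.5 and 69 UMIs per spot. The embryonic genes Hbb-bh1, Hbb-bh2 and Hba-x had 0 UMIs in the chosen spots of both sections and Hbb-y had 1. A count of 0 allows up to 3 counts in a pool, so lower levels were not detectable at this depth. Hbq1a, a theta-like alpha gene, had 10 and 9 UMIs there.

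The chosen spots lay in tracks and patches and were not scattered. In normal 1, 68 of 78 touched another blood-rich spot (87.2%, exact 95% interval 77.7 to 93.7), while 6.37% of the other spots touched one. In normal 2 the share was 68 of 79 (86.1%, 76.5 to 92.8) against 5.88%. These intervals treat spots as independent, which touching spots are not, so they are too narrow. Normal 1 held 20 separate groups of touching spots, of which 10 were single spots and the largest had 31 spots. Normal 2 held 16, of which 11 were single and the largest again had 31. Groups of 10 or more spots, called clumps below, numbered 2 in normal 1 and 3 in normal 2, and held 55.1% and 81.0% of the chosen spots.

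**Figure D1:**
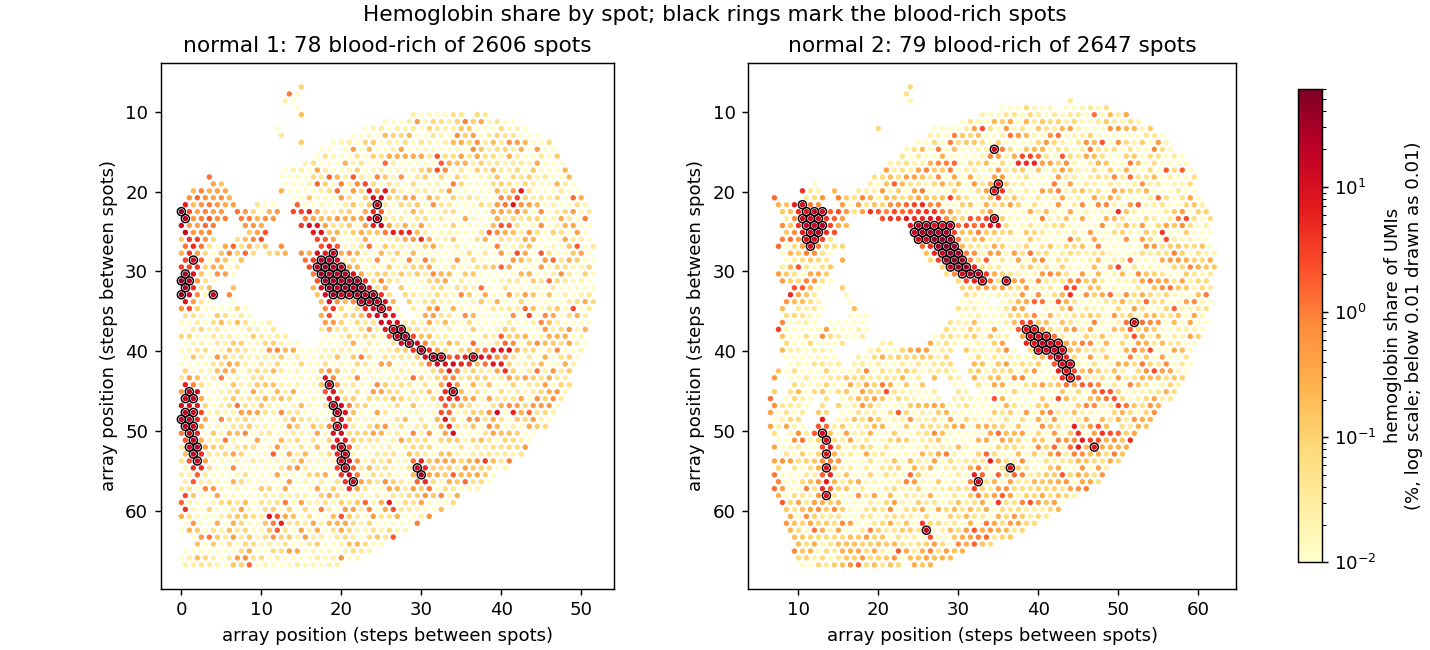
Hemoglobin share of UMIs in every tissue spot of normal sections 1 and 2 with at least 500 UMIs, drawn at its position on the capture array (both axes in steps between spots; colour on a log scale). Black rings mark the 78 and 79 blood-rich spots, of which 68 in each section touch another one, and many form elongated tracks.

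The kidney zone of each spot was called from marker genes. In normal 1, 34 of 78 blood-rich spots were called outer stripe of the outer medulla (43.6%, exact 95% interval 32.4 to 55.3), against 30.4% of the other spots. Normal 2 had 20 of 79 there (25.3%, 16.2 to 36.4), and its largest group was cortex, with 38 spots (48.1%, 36.7 to 59.6). The inner medulla held 14 blood-rich spots in each section, 17.9% and 17.7%, against 4.35% and 7.44% of the other spots. Among the top 1% of spots, 26 in each section, the inner medulla held 7 in normal 1 (26.9%, 11.6 to 47.8) and 2 in normal 2 (7.69%, 0.946 to 25.1). The outer stripe held 4 of the 26 in normal 1 (15.4%, 4.36 to 34.9). Most blood-rich spots touch another and share neighbours in their zone scores. The intervals treat them as independent, so they are too narrow to judge a zone against the other spots. A spot was scored together with its neighbours, and 33.3% of the blood-rich spots of normal 1 and 21.5% of those of normal 2 had a close call between 2 zones, so the zone of a single spot is uncertain. In normal 1, 21 blood-rich spots lay in the first 4 columns of the array, where the tissue ran to the limit of the capture area. No blood-rich spot of normal 2 lay there.

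Hemoglobin was also compared by steps from the blood-rich spots. The drop at the first step follows from the rule, which took the spots with the highest shares. In normal 1 the pooled share was 23.1% in the blood-rich spots, 3.76% in spots that touched one, 0.586% at 2 steps and 0.290% at 3 steps. The same values in normal 2 were 17.7%, 1.74%, 0.616% and 0.401%. At 6 or more steps, 0.200% and 0.234% of UMIs were still hemoglobin. Single spots far from any blood-rich spot reached 12.6% in normal 1 and 5.54% in normal 2. By the rule, every spot left out lies below the limit for being chosen.

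**Figure D2:**
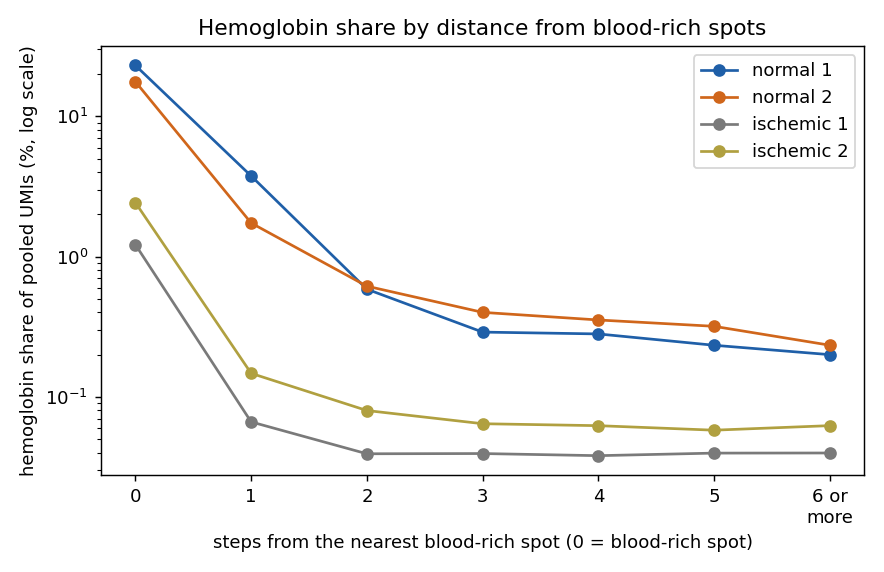
Hemoglobin share of pooled UMIs (percent, log scale) against the number of steps to the nearest blood-rich spot, for the 2 normal and the 2 ischemic sections. The drop at the first step away, present in all 4 sections, follows from choosing the spots with the highest share. The normal sections start at 23.1% and 17.7% and the ischemic ones at 1.22% and 2.43%.

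Blood-rich spots were shallower than the rest of their section once hemoglobin was set aside. The median number of non-hemoglobin UMIs per spot was 7774.5 against 16341.5 in normal 1, and 6660 against 8744 in normal 2. The pooled libraries compared below held 637205 and 626578 non-hemoglobin UMIs for the blood-rich spots and 43492264 and 26771838 for the other spots. Transcripts of the mitochondrial genome took 12.4% of non-hemoglobin UMIs against 5.16% in normal 1, and 14.5% against 4.73% in normal 2. With at least 2000 UMIs per spot, 190 genes were called in the comparison of pools below, among them all 149 called there. After thinning to 2000 UMIs for the ranking, 216 were called, with 147 of the 149. With mitochondrial genes left out of the totals, 177 were called, with 140 of the 149.

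The proportions among the hemoglobin genes describe values that chose the spots and were not tested. Alpha chain genes made up 46.1% of hemoglobin UMIs in the blood-rich spots of normal 1 and 44.4% in its other spots, and 46.7% and 46.6% in normal 2. Hba-a2 made up 42.8% of alpha chain UMIs in the blood-rich spots of normal 1 (exact 95% interval 42.5 to 43.1) and 42.5% in its other spots (42.2 to 42.8). In normal 2 it made up 42.9% and 43.0%. Hbb-bt made up 9.54% of beta chain UMIs in the blood-rich spots of normal 1 (9.36 to 9.72) and 8.89% in the other spots (8.73 to 9.06). In normal 2 the shares were 10.0% (9.81 to 10.3) and 8.52% (8.30 to 8.74). Counting intervals leave out differences between mice and sections.

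Alas2, the red-cell enzyme that starts heme synthesis, was found in nearly the same proportion to hemoglobin in blood-rich and other spots. It was measured at 3.39 UMIs per 1000 hemoglobin UMIs in the blood-rich spots of normal 1 (exact 95% interval 3.13 to 3.66) and at 3.59 in the other spots (3.33 to 3.86). In normal 2 the values were 3.12 (2.82 to 3.43) and 3.15 (2.84 to 3.49). The clumps gave 3.37, 3.40, 3.34, 3.01 and 2.58. A similar proportion was present in the ischemic sections, at 3.52 (2.49 to 4.84) and 2.26 (1.69 to 2.96) in their blood-rich spots. The intervals of the 2 pools overlapped in each of the 4 sections. Mitoferrin-1, encoded by Slc25a37, which brings iron into mitochondria, did not keep such a proportion. It had 0.444 UMIs per 1000 hemoglobin UMIs in the blood-rich spots of normal 1 and 3.16 in the other spots, and 0.580 and 4.4 in those of normal 2. Isg20 lay between, at 1.23 against 1.67 in normal 1 and 1.05 against 1.61 in normal 2.

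Counts summed over blood-rich spots were then compared with counts summed over the other spots of the same section, with the 4 hemoglobin genes left out. Of 13938 genes tested by edgeR, 149 (1.07%) passed an adjusted p of 0.05, of which 131 (0.94% of those tested) were higher and 18 (0.129%) lower in blood-rich spots. All 149 had the same direction in both sections, which a paired test on 2 sections nearly requires. Of all 13938 genes tested, 7996 did. DESeq2 called 132 genes, 126 higher and 6 lower, of which 110 were shared. Some scarce genes passed the filter on low counts through the small blood-rich pools, where they were high. Ppbp, Gp9, Trim10, S100a9 and Ighd are such genes, so their high changes and their part in a list's count or median follow from the filter and support nothing. Levels below are CPM, counts scaled to a common total of non-hemoglobin UMIs after TMM scaling. Changes are log2 values with a standard error (SE) derived from edgeR's test statistic, whose estimate of spread is shared across genes. The sections can lie farther apart than the SE: Trbc2 changed by 1.27 in normal 1 and 3.19 in normal 2, with an SE of 0.42. Without the section as a block 32 genes passed, all higher, among them 11 erythroid, 4 platelet and 2 mitochondrial genes and none of the other lists. With library totals in place of TMM, 494 genes passed, 228 higher and 266 lower, and the median change of all genes moved from -0.03 to -0.18.

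Transcripts of red blood cells other than hemoglobin were strongly enriched. They travel in the same cells as the hemoglobin transcripts that chose the spots, so their rise describes that choice. Of the 25 measured erythroid genes, 19 were tested and 14 were higher, with a median change of 3.09 over those tested. With at least 10 counts expected in every library, 11 of 12 were higher and the median was 3.17. That filter uses the mean level over all libraries. Genes that are high in the blood-rich pools can pass it through them too, so it is no independent check. Alas2 was at 1084 CPM in the blood-rich spots and 17.5 CPM in the other spots of normal 1, and at 696 and 11.8 CPM in normal 2, a log2 change of 5.92 ± 0.23. The lowest, median and highest number of Alas2 UMIs per blood-rich spot were 0, 8 and 23 in normal 1 and 0, 4 and 23 in normal 2. Only 1 of 78 and 8 of 79 blood-rich spots had no Alas2 UMI.

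The other abundant red-cell transcripts moved with it. Isg20, an RNA exonuclease best known as interferon-induced, was at 395 against 8.15 CPM in normal 1 and at 234 against 6.03 CPM in normal 2 (log2 change 5.45 ± 0.21). Tent5c, a poly(A) polymerase, rose by 4.98 ± 0.20, and Ube2l6, a conjugating enzyme for the ubiquitin-like protein ISG15, by 4.43 ± 0.21. For each of these genes both blood-rich pools were far above both other pools. Both Isg20 and Ube2l6 are also known as interferon-responsive genes. Of 8 other interferon-stimulated genes tested, none was called by edgeR or DESeq2, 1 had an unadjusted p under 0.05, and their median change was 0.37.

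Smaller rises were measured for red-cell genes that kidney cells also express. Slc25a37 rose by 3.09 ± 0.19 and Mkrn1, a ubiquitin ligase, by 3.09 ± 0.22. Bpgm, whose product sets the oxygen affinity of hemoglobin, rose by 2.27 ± 0.19. Bnip3l, needed to clear mitochondria from maturing red cells, rose by 1.5 ± 0.20, and Fech, the last enzyme of heme synthesis, by 0.97 ± 0.18. Trim10, a gene of maturing red cells, had 7 and 4 UMIs in the blood-rich pools and 4 and 4 in the other pools.

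Genes of early red-cell precursors were scarce. Klf1, a transcription factor of red-cell precursors, had 1 and 2 UMIs in the blood-rich pools with a change of 0.26 ± 1.00 that did not pass the test. Gata1 had 0 UMIs in both blood-rich pools, and Rhd had 0 in all 4 pools. Prdx2, an abundant peroxidase of red cells that tubules also express, changed by -0.28 ± 0.19 and did not pass. Gda, a guanine deaminase that belongs to none of the lists, was at 70.3 against 2.64 CPM and at 46.5 against 1.75 CPM, a change of 4.73 ± 0.35 (adjusted p = 4.5e-06 by edgeR).

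**Figure D3:**
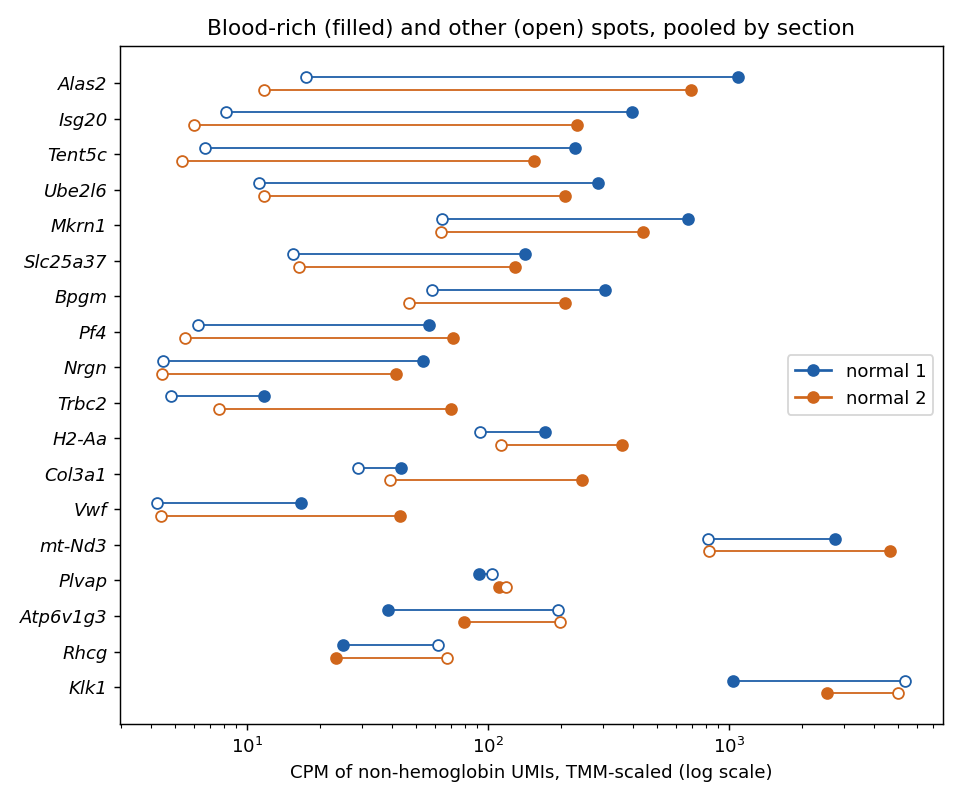
Pooled level of 18 genes in blood-rich spots (filled) and in the other spots of the same section (open), in CPM of non-hemoglobin UMIs on a log axis, for normal 1 and normal 2. Red-cell genes at the top are far apart between the pools in both sections, T cell and matrix genes are farther apart in normal 2 than in normal 1, Plvap is nearly level, and the intercalated and connecting tubule genes at the bottom are lower in blood-rich spots.

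Platelet genes were higher in blood-rich spots of both sections. Of 13 measured, 8 were tested and 6 were higher, with a median change of 3.43. With at least 10 counts expected in every library, 4 were tested, 3 were higher and the median was 2.36. The mean level behind that filter includes the blood-rich pools, so these values are no independent check either. All 13 measured genes summed to 338 against 93.1 CPM in normal 1 and to 327 against 91.6 CPM in normal 2. Pf4, a chemokine stored in platelet granules, was at 56.9 against 6.28 CPM in normal 1 and at 71.5 against 5.54 CPM in normal 2, a log2 change of 3.44 ± 0.28 (adjusted p = 1e-05 by edgeR). Ppbp, another granule chemokine, had 14 and 19 UMIs in the blood-rich pools and 15 and 7 in the other pools. Nrgn, abundant in platelets, rose by 3.41 ± 0.33. Gp9, part of the platelet receptor for von Willebrand factor, had 7 and 4 UMIs in the blood-rich pools and 3 and 2 in the other pools. Itga2b, the platelet integrin chain, was at 0.70 ± 0.30 and did not pass.

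Few genes of neutrophils and monocytes passed the test. Of 10 neutrophil genes, 3 were tested and 1 was called. This was S100a9, a calcium-binding protein of neutrophils, with 4 and 6 UMIs in the blood-rich pools and 24 and 17 in the other pools. With at least 10 counts expected in every library, no neutrophil gene was left to test. Neutrophil granule genes Mmp8 and Ngp were at 0 in all 4 pools. Of 7 monocyte genes, none was called by edgeR or DESeq2 and 3 had an unadjusted p under 0.05. Plac8, expressed by monocytes, was at 1.10 ± 0.25.

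Of 11 T and NK cell genes tested, 5 were higher, and the median change was 2.26. The calls rested on normal 2, and the difference between the sections was not tested for these or the following genes. Trbc2, a constant region of the T cell receptor beta chain, was at 11.7 against 4.84 CPM in normal 1 and at 69.8 against 7.61 CPM in normal 2 (log2 change 2.56 ± 0.42, adjusted p = 0.0075 by edgeR). Gzma, a granule protease of cytotoxic cells, had 2 and 22 UMIs in the blood-rich pools, and its log2 change was 0.93 in normal 1 and 4.69 in normal 2. Cd3d, a chain of the T cell receptor complex, changed by 0.35 and 3.01 and did not pass in the joint test. The median change of the T and NK genes was 0.99 without normal 2 and 2.77 without normal 1.

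Antigen presentation genes were also called. Of 4 B cell genes tested, 1 passed, and it is among the scarce genes that passed the filter through the blood-rich pools, so it supports nothing. Ighd, the heavy chain of naive B cells, had 1 UMI in the blood-rich pool of normal 1 and 12 in that of normal 2, against 10 and 13 in the other pools. Of the 7 genes of MHC class II, which present peptides to CD4+ T cells, 3 were higher. H2-Aa was at 172 against 92.6 CPM in normal 1 and at 359 against 113 CPM in normal 2, a log2 change of 1.3 ± 0.21. Of 7 resident macrophage genes, none was called by edgeR or DESeq2 and 2 had an unadjusted p under 0.05.

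No gene of the list for the endothelium of all vessels passed the test. Of 14 tested, none was called by edgeR or DESeq2, 4 had an unadjusted p under 0.05, and the median change was -0.09. Their summed level was 745 against 801 CPM in normal 1 and 779 against 886 CPM in normal 2. Plvap, which forms the diaphragms of fenestrated capillaries, changed by -0.13 ± 0.19. Cldn5, a tight junction protein of endothelium, was the highest of the list at 1.33 ± 0.30, without passing. Vwf, the clotting glycoprotein made by endothelium of larger vessels and carried by platelets, rose by 2.74 ± 0.43 (adjusted p = 0.0057 by edgeR). It had 10 and 26 UMIs in the blood-rich pools. Ccl21a, a chemokine of lymphatic endothelium, was called at 1.86 ± 0.34, and a second gene identifier carries the same symbol, so its counts are uncertain. Esm1, an endothelial proteoglycan, was lower at -2.10 ± 0.46, with 4 and 2 UMIs.

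Of 11 fibroblast and matrix genes, which encode connective tissue, 5 were higher and the median change was 1.86. Col3a1, a fibrillar collagen, was at 43.5 against 28.8 CPM in normal 1 and at 244 against 39.0 CPM in normal 2 (log2 change 1.86 ± 0.34). Fbln1, a matrix glycoprotein, rose by 1.95 ± 0.29, and Pi16, listed with glomerular endothelium and also known in fibroblasts around vessels, by 1.71 ± 0.29. The 11 fibroblast and matrix genes summed to 718 against 518 CPM in normal 1 and to 2362 against 611 CPM in normal 2. Their median change was 0.76 without normal 2. Of 10 smooth muscle genes, Tagln, an actin-binding protein, was called at 1.32 ± 0.28. The summed level of that list was lower in the blood-rich spots of normal 1, at 412 against 504 CPM, and higher in normal 2, at 1323 against 554 CPM. The median of the smooth muscle genes was -0.34 without normal 2 and 1.48 without normal 1.

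**Figure D4:**
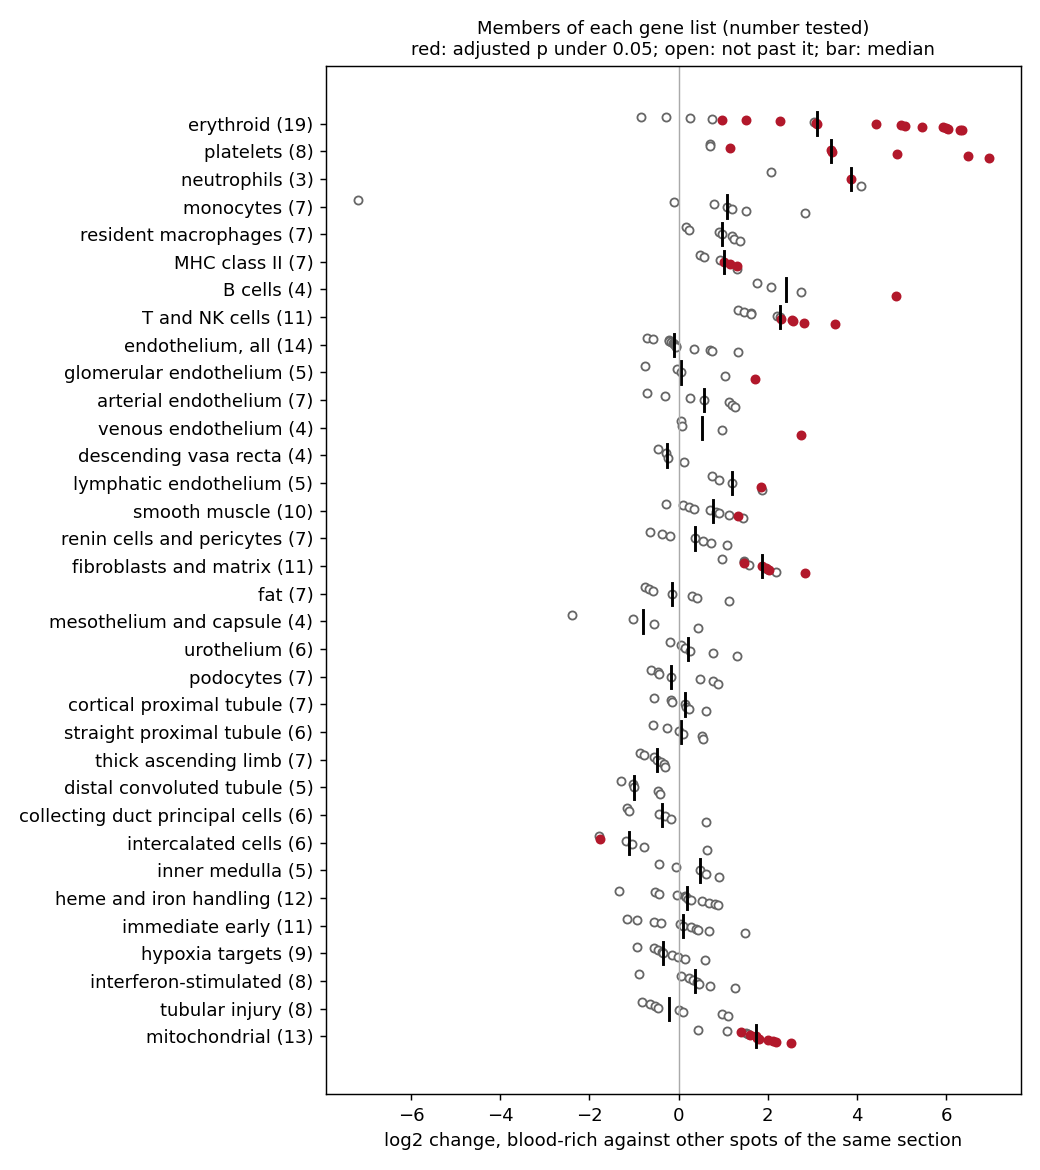
Log2 change of each tested gene in 34 gene lists, blood-rich against other spots of the same section (red, adjusted p under 0.05 by edgeR; open, not past it; black bar, median of the list). Erythroid and platelet lists have medians of 3.09 and 3.43, with some scarce members that passed the filter through the blood-rich pools. The list of endothelium of all vessels is centred at -0.09, and the intercalated cell list has its median at -1.11.

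Few kidney tubule genes passed the test. None of the cortical or straight proximal tubule, thick ascending limb, distal convoluted tubule, collecting duct principal cell or inner medulla genes was called by edgeR or DESeq2. At an unadjusted p under 0.05 there were 0 of 7, 3 of 6, 0 of 7, 3 of 5, 2 of 6 and 1 of 5. The median changes of these lists ran from -0.99 for the distal convoluted tubule to 0.49 for the inner medulla. These medians moved when 1 section was left out. The thick ascending limb was at -1.59 without normal 1 and at 0.15 without normal 2. The inner medulla was at -0.66 and 1.34, the distal convoluted tubule at -0.49 and -1.99, the principal cells at -1.11 and -0.14, the cortical proximal tubule at 0.26 and -0.59 and the straight one at -0.36 and 0.23. Umod, the main protein of the thick ascending limb, was at 3864 against 3209 CPM in normal 1 and at 1311 against 3069 CPM in normal 2. Aqp2, the vasopressin-regulated water channel, was at 842 against 291 CPM in normal 1 and at 249 against 325 CPM in normal 2. For both genes the sections went opposite ways.

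The 10 largest falls among called genes with at least 20 counts in the higher pool of each section are given next. Of 6 intercalated cell genes tested, Atp6v1g3, a subunit of the proton pump of those cells, was called. It was at 38.5 against 195 CPM in normal 1 and at 79.8 against 199 CPM in normal 2, a log2 change of -1.76 ± 0.25 (adjusted p = 0.0028 by edgeR). Atp6v1b1, another subunit of that pump, fell by 2.19 ± 0.38, and Rhcg, an ammonia transporter of the collecting duct, fell by 1.42 ± 0.25. Klk1, the kallikrein of the connecting tubule, was at 1039 against 5376 CPM and at 2545 against 5035 CPM, a change of -1.67 ± 0.33. Insrr, a receptor that responds to alkaline pH, had 0 UMIs in both blood-rich pools and 10.3 and 10.2 CPM in the other pools. With a floor of 3 counts per library it was at least 2.05-fold lower in each section. The other falls among the 10 largest were Mcoln1, a lysosomal channel, Ggct, an enzyme of glutathione turnover, Esm1, Ogfod2 and Tmem252, between -1.22 and -2.10.

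Genes that handle heme and iron outside red cells did not pass the test. Of 12 tested, none was called by edgeR or DESeq2, 4 had an unadjusted p under 0.05, and the median was 0.19. Hmox1, which breaks heme down, had 3 and 4 UMIs in the blood-rich pools and a change of -1.34 ± 0.49. Fth1, the ferritin heavy chain that stores iron, was at 13156 against 20135 CPM in normal 1 and at 12334 against 14827 CPM in normal 2. Hpx and Hamp, which bind free heme and regulate iron uptake, had 0 UMIs in both blood-rich pools. Hypoxia targets and immediate early genes had medians of -0.36 and 0.10, with none of 9 and 11 called by edgeR or DESeq2 and 1 and 4 at an unadjusted p under 0.05.

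Mitochondrially encoded transcripts were higher. Of 13 genes, 9 were called, with a median of 1.75. The gene mt-Nd3, which encodes a subunit of respiratory complex I, was at 2744 against 818 CPM in normal 1 and at 4669 against 824 CPM in normal 2, a log2 change of 2.13 ± 0.27. Gm42418, a predicted gene that overlaps a ribosomal RNA locus, was at 4160 against 429 CPM and at 3512 against 368 CPM, a change of 3.27 ± 0.25. Transcripts of ribosomal proteins took 10.5% against 8.58% of non-hemoglobin UMIs in normal 1 and 14.3% against 9.0% in normal 2. Of 95 ribosomal protein genes tested, a group chosen after its values were seen, 9 were higher and none lower, with a median of 0.58.

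The clumps of blood-rich spots differed among themselves, and each lies within 1 section. Summed erythroid genes were at 5617 and 3059 CPM in the clumps of normal 1 and at 6645, 1887 and 2522 CPM in those of normal 2. Smooth muscle genes were at 347 and 244 CPM in normal 1 and at 3224, 300.3 and 3002 CPM in normal 2. T and NK cell genes reached 1250 CPM in the third clump of normal 2, from 112 UMIs over 15 spots, and 27.7 CPM in the largest clump of normal 1, from 6 UMIs over 31 spots. Fibroblast genes were highest in the third clump of normal 2, at 4687 CPM, and lowest in the second clump of normal 1, at 430 CPM. Urothelial genes, which mark the lining of the pelvis, were at 876 CPM in the largest clump of normal 2, where 6 of 31 spots were called pelvis. The second clump of normal 1 lay at the array limit with all 12 spots called outer stripe.

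**Figure D5:**
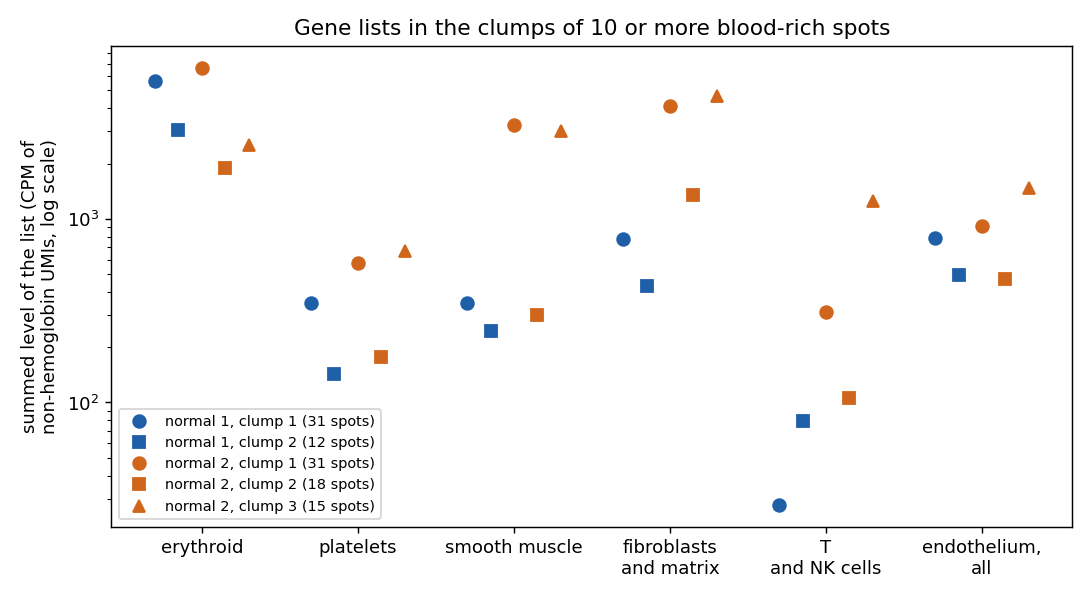
Summed level of 6 gene lists in each clump of 10 or more blood-rich spots (CPM of non-hemoglobin UMIs, log axis), 2 clumps in normal 1 and 3 in normal 2. Erythroid levels stay between 1887 and 6645 CPM, whereas T and NK cell levels run from 27.7 to 1250 CPM.

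Within the blood-rich spots, platelet genes and those of several kidney cell types were higher where hemoglobin was highest. In the 1% of spots with the highest hemoglobin share, platelet genes summed to 782 CPM in normal 1 and 811 CPM in normal 2, without TMM scaling. In the next 2% of spots they summed to 163 and 199 CPM, and in the 50% of spots with least hemoglobin to 74.9 and 98.6 CPM. Between the next 2% and the top 1%, erythroid genes went from 3113 to 7148 CPM in normal 1 and from 1897 to 7169 CPM in normal 2. Between the same bands of normal 1, principal cell genes went from 510 to 2984 CPM, inner medulla genes from 1216 to 6094 CPM and urothelial genes from 123 to 713 CPM. In normal 2 the principal cell genes went from 441 to 279 CPM and the inner medulla genes from 860 to 836 CPM, while T and NK cell genes went from 262 to 481 CPM and B cell genes from 96.4 to 203 CPM. The part of these cell types in the platelet values was not tested. Smooth muscle genes were highest outside the blood-rich spots of normal 1, at 1186 CPM in spots between the 75th and 90th percentile of hemoglobin share against 357 and 473 CPM in the blood-rich bands. In normal 2 the bands above the 90th percentile held 2099, 990 and 2474 CPM.

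The spots that touched blood-rich spots without being chosen were compared with the remaining spots. The choice used no genes but hemoglobin. These spots touch the chosen ones, and hemoglobin took 3.76% and 1.74% of their pooled UMIs in normal 1 and normal 2. Raised red-cell genes go with that hemoglobin and are no separate result. There were 161 such neighbours in normal 1 and 151 in normal 2. Of 14073 genes tested by edgeR, 999 (7.1%) were called, 630 higher (4.48%) and 369 lower (2.62%). Red-cell genes were still raised: 8 of 15 erythroid genes tested were higher, and Alas2 was at 166 against 8.72 CPM in normal 1 and at 54.5 against 8.75 CPM in normal 2 (log2 change 3.58 ± 0.15). Among called genes with at least 20 counts in the higher pool of each section, the 5 largest rises were Alas2, Isg20 and 3 antibody genes of plasma cells. Igkc, the kappa light chain, was at 206 against 18.3 CPM and at 228 against 37.8 CPM (3.03 ± 0.12), Jchain, which joins antibody units, rose by 2.82 ± 0.24, and Igha, the IgA heavy chain, by 2.58 ± 0.13.

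Genes of connective tissue, smooth muscle and immune cells were higher in the neighbours. All 11 fibroblast and matrix genes were higher, with a median of 1.5, as were 8 of 10 smooth muscle genes (0.76), 9 of 11 T and NK genes (1.20), 6 of 7 MHC class II genes (1.03) and 5 of 6 urothelial genes (0.96). Of 14 genes of endothelium of all vessels, 2 were higher and 1 lower. All 7 thick ascending limb genes were lower, with a median of -0.75, and Slc12a1, the salt transporter of that segment, changed by -0.95. The zones differed too. The inner stripe, where that segment is dense, made up 4.97% and 2.65% of the neighbours against 14.4% and 13.2% of all spots outside the blood-rich ones, and the pelvis, which urothelium lines, 9.94% and 9.93% against 5.02% and 4.87%. With section and zone as the block, 448 of 8025 genes were called. The 5 largest falls by the rule, 2010308F09Rik, Cyp46a1, Nnat, Perm1 and Sgsm1, had at most 1 UMI in each neighbour pool, so no fold is given. All 5 lost their call without the section block and with library totals.

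The same rule in the ischemic sections took 71 and 77 spots with a far lower share of hemoglobin transcripts. They are called blood-rich by the rule alone, and the amount of blood was not measured. Their hemoglobin share had medians of 0.90% and 1.64%, against 21.2% and 14.8% in the normal sections, and the whole sections had 0.0763% and 0.161% hemoglobin. The highest ischemic spots reached 6.72% and 15.9%. Of the blood-rich spots of ischemic sections, 36 of 71 (50.7%, exact 95% interval 38.6 to 62.8) and 52 of 77 (67.5%, 55.9 to 77.8) touched another. The largest groups there had 10 and 12 spots. Alpha chain genes made up 50.5% and 52.1% of hemoglobin UMIs in those spots, against 46.1% and 46.7% in the normal sections. The exact intervals were apart between conditions, but also between the 2 normal sections (45.9 to 46.3 and 46.5 to 47.0). They cover counting error only, so they cannot decide whether the conditions differ. The other spots gave 50.7% and 51.2% in ischemic against 44.4% and 46.6% in normal sections, so the shares were apart in whole sections. No test over sections was made for this share, with 2 sections per condition.

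When the difference between blood-rich and other spots was compared between conditions, 43 of 14895 genes (0.289%) passed by edgeR, 29 (0.195%) with a higher change in normal sections and 14 (0.094%) with a lower one. Isg20 differed most among the genes named, with a log2 change of 5.42 in normal and 0.64 in ischemic sections, a difference of 4.78 ± 0.23. Scaled over the pools of all sections, it was at 434 and 257 CPM in the blood-rich pools of normal sections and at 26.6 and 41.5 CPM in those of ischemic sections. The other spots were at 9.21 and 6.78 CPM in normal and at 20.7 and 22.9 CPM in ischemic sections. Alas2 differed by 0.80 ± 0.29, which did not pass the test. The change of Klk1 had opposite signs, at -1.70 in normal and 1.52 in ischemic sections. Its other spots were at 6076 and 5667 CPM in normal and at 1076 and 895 CPM in ischemic sections. Its blood-rich spots were at 1143 and 2795 CPM in normal and at 3069 and 2592 CPM in ischemic sections, so the level of the other spots differed as well. The hemoglobin share of the chosen spots also differed between the conditions, and the 2 cannot be told apart here.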

How the data were processed

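Spatial RNA libraries were made from 2 normal and 2 ischemic mouse kidney sections. The authors deposited raw counts of UMIs per gene and spot, made with Space Ranger 1.3.0 on the mm10 genome, for 32285 genes. The members and the gene lists were chosen with earlier results of these data known. Spots under tissue with at least 500 UMIs were ranked by the summed share of the 4 hemoglobin genes, and counts were summed over the top 3% and over the other spots of each section. Spots are not replicates, so each sum is 1 library.

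Summed counts were tested with edgeR 4.0.16 in R 4.3.3 (quasi-likelihood test, TMM, filterByExpr with a minimum count of 10, Benjamini-Hochberg threshold 0.05), with the section as a block and 1 residual degree of freedom. The pools of a section are paired because they come from the same tissue section. The test was tried on simulated data with known changes. DESeq2 1.42.0 was an alternative, as were other scalings, filters, limits and comparison spots. Zones were called from marker genes over a spot and its up to 6 neighbours. Intervals are exact binomial or Poisson intervals at 95% and cover counting error only. Those on shares of spots also treat touching spots as independent, so they are too narrow. CPM in the comparison of clumps and of bands of spots is without TMM. Sequences are from GENCODE and RefSeq. Genes were named by a rule: the 5 markers, up to 4 genes of each list (the called ones with the largest change, or 2 with most counts), the 10 largest called rises and falls with at least 20 counts in the higher pool of each section, the 5 largest of each direction in the further comparisons, and 3 list members that differed most between sections. Other list members named in the text were chosen after their values were seen. Total UMIs per section were 44528078, 27657481, 31053530 and 25957128 in normal 1, normal 2, ischemic 1 and ischemic 2.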

Additional observations from a re-analysis of the deposited data

Results flagged for a closer look

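For 43 of 14895 genes (0.289%) the log2 change between blood-rich and other spots differed between normal and ischemic sections (edgeR, adjusted p under 0.05). The 10 genes below were named because they passed this test, as the 5 largest differences of each direction within the naming limits. That all 10 passed follows from that rule. Among those with a higher change in normal sections, the difference was 4.78 for Isg20, 4.66 for Gda, 3.42 for Ube2l6, 3.04 for Slc25a37 and 2.99 for Ccl5, a T cell chemokine. Slc25a37 changed by 3.06 in normal and 0.02 in ischemic sections, and Ccl5 by 2.15 and -0.84. Among those with a lower change in normal sections, the difference was -3.23 for Klk1, -2.53 for Atp6v1b1, -2.49 for Tmem52b, -2.24 for Atp6v1g3 and -2.12 for Rhcg. Such a difference can come from the level of the other spots as well as from that of the blood-rich spots. Blood-rich spots of the ischemic sections held 1.22% and 2.43% hemoglobin when pooled, against 23.1% and 17.7% in normal sections, and its part in these differences was not tested.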

How the results depend on the processing

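The 149 genes called in the main comparison became 368 with no filter on low counts (251 higher, 117 lower), 343 with at least 10 counts expected in every library (255 and 88), 494 with library totals (228 and 266), 32 without the replicate block that pairs the pools of a section, 503 with all 4 sections in 1 fit (291 and 212), 279 with the top 1% of spots (139 and 140) and 534 with the top 5% (390 and 144). The count was 230 with the ranking within each zone, 311 of 6157 genes with section and zone as the block, 77 against spots that touch no blood-rich spot, 245 against spots below the median hemoglobin share and 478 without spots near the tissue edge. Without normal replicate 1 or 2 it was 898 and 672, where the lone section is assumed to vary like the ischemic ones. The 999 genes of the neighbours became 381 with library totals, 50 without the replicate block and 448 with section and zone as the block. The 43 genes that differed between conditions became 28 with DESeq2 and 34 to 303 when 1 section was left out. The cause of these moves was not tested. Among the top 1% of spots, 38.5% of those in normal 1 and 7.69% in normal 2 were called outer medulla, against 59.0% and 26.6% of the top 3%, and Hbb-bt made up 10.1% and 10.5% of beta chain UMIs.

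Some genes not called in the main comparison changed direction between the fits that left out 1 section, where the lone section is assumed to vary like the ischemic ones. The log2 change without normal replicate 1 and without normal replicate 2 was -0.50 and 1.42 for Aqp2, -0.44 and 0.22 for Atp11a, 0.31 and -0.60 for Ftl1, -0.94 and 0.52 for Cryab and 1.55 and -1.45 for Cfd. Slc34a1 turned to 0.71 with section and zone as the block. Of 1737 pairs of a named gene and an alternative, 1538 kept direction and side of the threshold, 106 lost the call and 87 gained one. Depth limits the rarest genes: Gp9, S100a9 and Ighd rest on 13 or fewer UMIs in the blood-rich pools.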
